A study of Mus musculus with 6 samples.

Results

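The melanocyte and pigment genes were 10 genes taken by symbol from the 52636 genes of the count table, and all 10 were found. They code for the melanin enzymes (Tyr, Tyrp1 and Dct), the melanosome proteins Pmel, Mlana and Gpr143, the melanosome transporters Slc45a2, Oca2 and Slc24a5, and the transcription factor Mitf. Melanocytes are neural crest cells that make melanin inside melanosomes, which are organelles related to lysosomes. In the inner ear they are known from the connective tissue of the vestibular organs, close to the dark cells, and from the stria vascularis of the cochlea, where they are called intermediate cells. Tyr starts melanin synthesis from tyrosine, Dct and Tyrp1 act on later intermediates of eumelanin, and Mitf is the factor that switches on most of these genes.

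Bulk RNA-seq was done on vestibular epithelium of male 129S1/SvImJ mice, 2 to 4 months old, with 3 animals in each group. The Control group drank plain water. The IDPN group drank water with 30 mM 3,3'-iminodipropionitrile, an ototoxic nitrile that damages vestibular hair cells (HCs), for 8 weeks. Each library held the 2 utricles and 6 cristae of a single animal, with adjacent tissue cleaned away, so any melanocytes in it came along with the epithelium. The comparison asked whether the pigment genes differ between the groups. Estimated counts per library lay between 40474847 and 43566332, and 15701 to 16812 genes had at least 10 counts. In the titles, Control animals have codes with a common beginning not seen in IDPN animals, and effects of origin or handling that follow this coding cannot be told apart from IDPN. Of 10 genes marking HCs, 8 fell in IDPN, though the share of all genes that fell was not computed. The study had reported some of these HC genes, such as Ocm, Ptprq and Kcna10, as lower in these mice. Their fall is therefore a description and not an independent check on the labels.

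The libraries were not alike in pigment genes within a group. Counts are given here after division by the DESeq2 size factor of the library (normalised counts). Summed over the 10 genes, they were 15031, 15040 and 6897 in Control 1, 2 and 3, and 18177, 15208 and 23389 in IDPN 1, 2 and 3. Control 3 thus held fewer pigment counts than any other library, and IDPN 2 the fewest of its group. The 10 genes took 0.0179% to 0.0307% of the counts of a Control library and 0.0348% to 0.0619% of those of an IDPN library. In bulk tissue, more melanocytes in a sample and more RNA per melanocyte cannot be told apart.

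None of the 10 genes was called as changed. To be called, a gene needed a Padj (the p of the DESeq2 Wald test after Benjamini-Hochberg adjustment over all genes) under 0.05 and a fold change above 1.5. Of the 17650 genes with a Padj, 2.32% were called higher in IDPN. No share was computed for genes called lower, in this or any other fit, so counts of falling genes below have none beside them. All 10 estimates were on the IDPN side, with a median log2 fold change of 0.50 beside 0.015 over all tested genes, and the lowest Padj was 0.0614. By edgeR, 0 of the 9 genes that were tested were called, where 1.02% of genes were called higher. At an unadjusted p under 0.05, 4 of the 10 passed in DESeq2 (Tyrp1, Mlana, Tyr and Slc45a2). Beside them, 7.77% of all genes tested by DESeq2 passed and were higher in IDPN. In edgeR 3 of 9 passed, and the share of all genes passing was not computed for edgeR. The 10 genes were read from the same 6 libraries, so they are not 10 independent measurements.

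**Figure D1:**
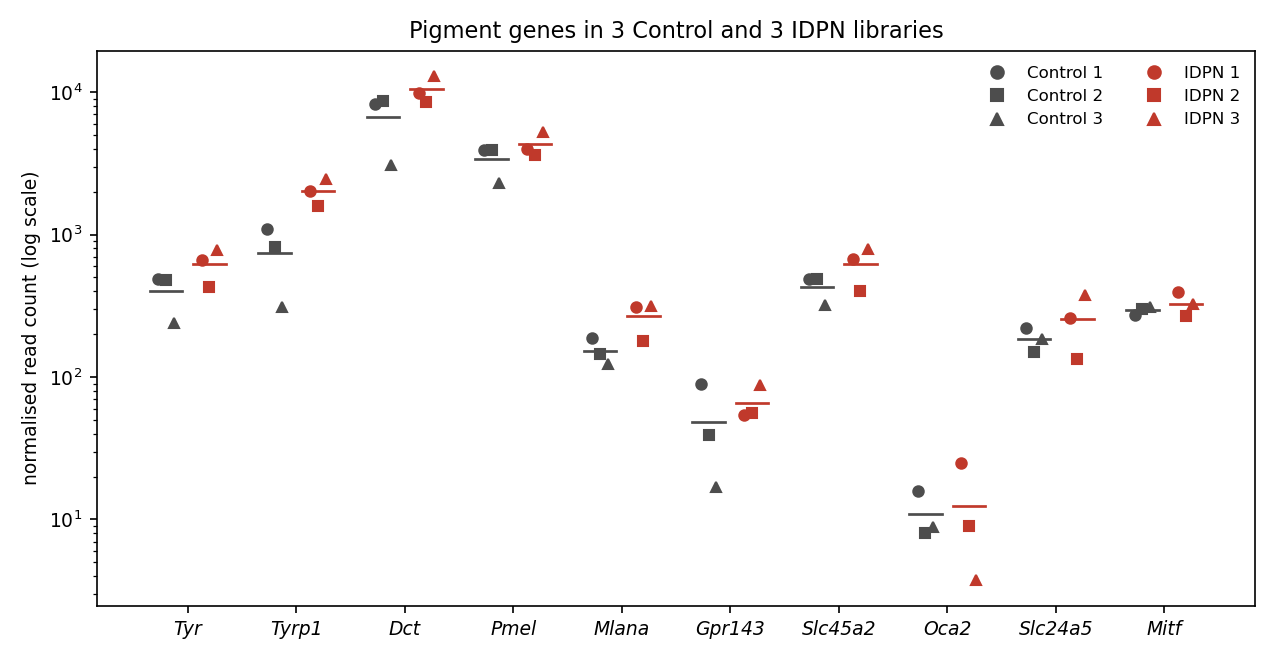
Normalised read counts (log scale) of the 10 pigment genes in the 3 Control (grey) and 3 IDPN (red) libraries; each symbol is 1 library and each bar a group mean. Tyrp1 is the gene whose IDPN libraries all sit above its Control libraries, and Control 3 (grey triangle) is the lowest library for Tyr, Tyrp1, Dct, Pmel, Mlana and Slc45a2.

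The promoters of several members share a short motif, shown here because Mitf is known to bind it (CATGTG, within the longer M-box). RefSeq promoters (GRCm38.p6), which run from 250 bases before to 50 after a gene's start, were at hand for 6 of the 10 genes, with 8 entries. The letters CATGTG, read on both strands, were in the promoters of Tyrp1, Tyr, Dct, Slc24a5 and Oca2, and in none of the 3 of Mitf. Of all 32851 promoters of this length, 14.2% held them. The longer TCATGTG, which contains CATGTG, was in those of Tyrp1, Tyr, Dct (at 2 places) and Slc24a5, and in 3.77% of all promoters. CACGTG, another Mitf motif, was in none of the 6 genes and in 7.15% of all promoters. Each line gives 30 bases on the strand of the gene, with CATGTG or its reverse complement in capitals. The motif starts 46 bases upstream of the RefSeq start in Tyrp1, 21 in Tyr, 150 and 232 in Dct, 13 in Slc24a5 and 186 in Oca2. The GENCODE coordinates of Tyrp1 given below start further upstream, at chr4:80834123, so its motif lies within them. A match is a description of letters and not a binding site.
Tyrp1, chr4:80834155-80834184, plus strand: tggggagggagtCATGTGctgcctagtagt
Tyr, chr7:87493516-87493545, minus strand: gaaaaagttagtCATGTGctttgcagaaga
Dct, chr14:118052379-118052408, minus strand: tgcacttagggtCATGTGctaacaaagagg
Dct, chr14:118052461-118052490, minus strand: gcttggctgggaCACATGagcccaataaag
Slc24a5, chr2:125068102-125068131, plus strand: aaggagactgctCACATGattcagcataag
Oca2, chr7:56239561-56239590, plus strand: ttgagcttgctaCACATGgctggaattttc

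Tyrp1 codes for the tyrosinase-related protein 1, which acts late in eumelanin synthesis and stabilises tyrosinase. Its gene lies at chr4:80834123-80851719 on the plus strand (GRCm38). In Control 1, 2 and 3 it had 1100, 813 and 312 normalised counts, against 2037, 1575 and 2472 in IDPN 1, 2 and 3. Every IDPN library was above every Control library, which held for none of the other 9 genes and for 11.1% of all genes tested. The means were 742 ± 399 and 2028 ± 448 (SD, n = 3), and the log2 fold change was 1.45 (SE 0.53, DESeq2 Padj = 0.0820). The 95% interval of this change ran from 0.41 to 2.49. The edgeR Padj was 0.0635. Without Control 3, the lowest library, the change was smaller and its error was too (log2 fold change 1.09, SE 0.23, DESeq2 Padj = 0.000153), and Tyrp1 was called by DESeq2 and by edgeR (Padj = 0.0397). Without Control 1, the highest Control library, it was also called (log2 fold change 1.85, DESeq2 Padj = 6.78e-06). In the DESeq2 fits without Control 3 and without Control 1, 3.82% and 1.39% of genes were called higher. No such share was computed for edgeR without Control 3. It was not called by DESeq2 without Control 2 (Padj = 0.220), IDPN 1 (Padj = 0.275), IDPN 2 (Padj = 0.160) or IDPN 3 (Padj = 0.340), where its log2 fold change was 1.28 to 1.60.

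Tyr codes for tyrosinase, the rate-limiting enzyme of melanin synthesis (chr7:87424771-87493512, minus strand). Its normalised counts were 484, 477 and 238 in Control and 661, 426 and 783 in IDPN. IDPN 2 was below Control 1 and 2, so the groups overlapped. The log2 fold change was 0.64 (SE 0.29, DESeq2 Padj = 0.203), and 0.38 without Control 3 (Padj = 0.444). Dct codes for dopachrome tautomerase and is also a marker of melanocyte precursors (chr14:118012790-118052244, minus strand). It had the most counts of the 10 genes, at 8222, 8677 and 3095 in Control and 9796, 8517 and 12979 in IDPN. Here too IDPN 2 lay within the Control range, and the log2 fold change was 0.65 (SE 0.48, DESeq2 Padj = 0.547). The SE of Dct was 0.29 with TMM size factors and 0.30 with a low-count filter, with a Padj of 0.193 and 0.219. Summed, the 3 enzymes were at 9806, 9967 and 3646 normalised counts in Control and 12494, 10518 and 16234 in IDPN.

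Of the structural proteins, Pmel forms the amyloid fibrils on which melanin is laid down (chr10:128704195-128720238, plus strand). Pmel was at 3954, 3944 and 2286 normalised counts in Control and at 3966, 3642 and 5258 in IDPN, with both groups around one level apart from Control 3 and IDPN 3. Its log2 fold change was 0.34 (SE 0.23, DESeq2 Padj = 0.487) and 0.12 without Control 3. Exons of Pmel overlap those of Cdk2 and Dgka, and since the counting is not stated to use strand, its reads may be shared with them. Mlana, also called MART-1, is a membrane protein needed for Pmel processing (chr19:29697824-29708634, plus strand). It was at 187, 144 and 124 in Control and 311, 180 and 313 in IDPN, so that only IDPN 2 fell inside the Control range. The log2 fold change of Mlana was 0.83 (SE 0.29, DESeq2 Padj = 0.0614), the lowest Padj of the 10 genes, while its edgeR Padj was 0.137. Gpr143 is the G protein-coupled receptor of the melanosome that is mutated in ocular albinism (chrX:152781921-152808646, plus strand). At 89.7, 39.2 and 16.9 in Control and 53.8, 56.2 and 87.7 in IDPN, it varied as much within Control as between the groups (log2 fold change 0.45, SE 0.53, DESeq2 Padj = 0.761).

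Slc45a2 is a melanosome transporter that keeps the organelle at a pH at which tyrosinase works (chr15:11000721-11029233, plus strand). Its normalised counts were 484, 488 and 319 in Control and 673, 404 and 792 in IDPN, which is the same order of libraries as for Tyr apart from Control 1 and 2. The log2 fold change was 0.54 (SE 0.27, DESeq2 Padj = 0.275). Without IDPN 2, the lowest IDPN library in Slc45a2, it was 0.77 (Padj = 0.0416) and Mlana was 1.05 (Padj = 0.00860), so both were called by DESeq2, beside 1.35% of genes called higher. By edgeR without IDPN 2, none of the 10 genes was called. Slc24a5 exchanges sodium and calcium across melanosome or trans-Golgi membranes (chr2:125068124-125088677, plus strand). It was at 222, 149 and 186 in Control and 262, 134 and 376 in IDPN, with the lowest of all 6 values in IDPN 2 (log2 fold change 0.47, SE 0.34, DESeq2 Padj = 0.526). Its exons overlap those of Myef2. Oca2, an anion channel of the melanosome, had 4 to 30 raw counts per library (chr7:56239760-56536518, plus strand). Its log2 fold change of 0.21 (SE 0.89, DESeq2 Padj = 0.948) turned to -0.77 without IDPN 1, and no difference was detectable at this depth.

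Mitf was the member nearest to no change (chr6:97807052-98021349, plus strand). Its normalised counts were 273, 300 and 310 in Control and 393, 266 and 325 in IDPN, with a log2 fold change of 0.16 (SE 0.22, DESeq2 Padj = 0.812) and a 95% interval from -0.28 to 0.60. Control 3 was not low in Mitf, unlike in the enzymes. Mitf has several promoters, of which one serves melanocytes, and is also used by macrophages and other cells. The counts add up all its transcripts, so the melanocyte form was not measured apart.

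**Figure D2:**
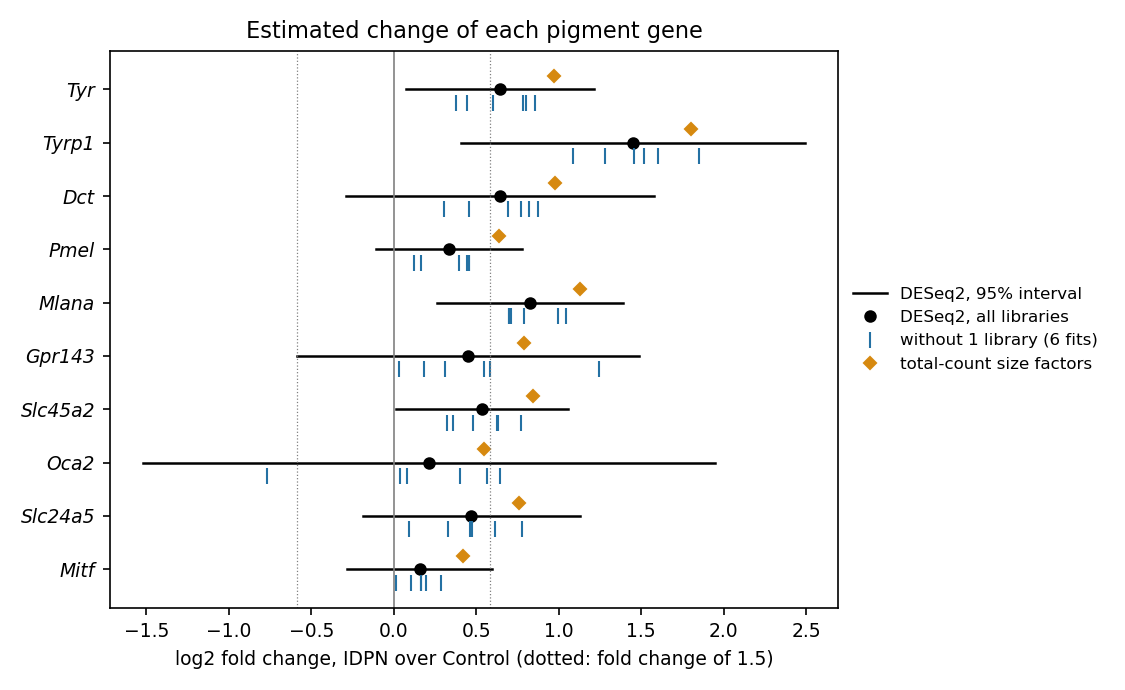
Log2 fold change (IDPN over Control) of each pigment gene with its 95% interval from DESeq2 (black), beside the estimates without each library in turn (blue ticks) and with total-count size factors (orange). All 10 black points are above 0, the estimate of Oca2 crosses 0 without IDPN 1, and the orange points lie to the right of the black ones.

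The scaling of the libraries moved these results. The IDPN libraries had similar totals to Control but larger DESeq2 size factors on average. With total-count size factors the median of all tested genes shifted to 0.27, and the median of the 10 pigment genes to 0.82. Under that scaling 4 of the 10 genes were called, where 3.64% of all genes were called higher: Tyrp1 (1.80, Padj = 4.55e-06), Mlana (1.13, Padj = 0.0198), Dct (0.98, Padj = 0.0246) and Tyr (0.97, Padj = 0.0378), all log2 fold changes by DESeq2. With TMM factors none was called.

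A share of the summed counts of the 10 genes does not depend on any size factor. This quantity was added after the data had been seen, and it describes the make-up of the pigment counts in each library. In Control 1, 2 and 3, Tyrp1 took 7.32%, 5.40% and 4.53% of the pigment counts, against 11.2%, 10.4% and 10.6% in IDPN 1, 2 and 3. The shares were thus 5.75% ± 1.43 and 10.7% ± 0.440 (SD, n = 3), a ratio of 1.86, and the groups did not overlap. Pmel moved to the other side, with 26.3%, 26.2% and 33.2% in Control and 21.8%, 23.9% and 22.5% in IDPN. For both, the two-sided exact permutation p was 0.1, which is the smallest that 3 against 3 libraries can give, so no share could pass 0.05. The shares add to a fixed total and are tied to one another, so the lower Pmel share is not a result apart from the higher Tyrp1 share. No background over all genes was computed for such shares. The other 8 genes overlapped between the groups, and Dct, the largest, took 54.7%, 57.7% and 44.9% in Control and 53.9%, 56.0% and 55.5% in IDPN. Set against Dct alone, Tyrp1 had 13.4, 9.36 and 10.1 counts per 100 Dct counts in Control and 20.8, 18.5 and 19.0 in IDPN. IDPN 2, whose normalised pigment sum (15208) was the nearest of its group to those of Control 1 and 2, had a Tyrp1 share close to that of IDPN 1 and 3.

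**Figure D3:**
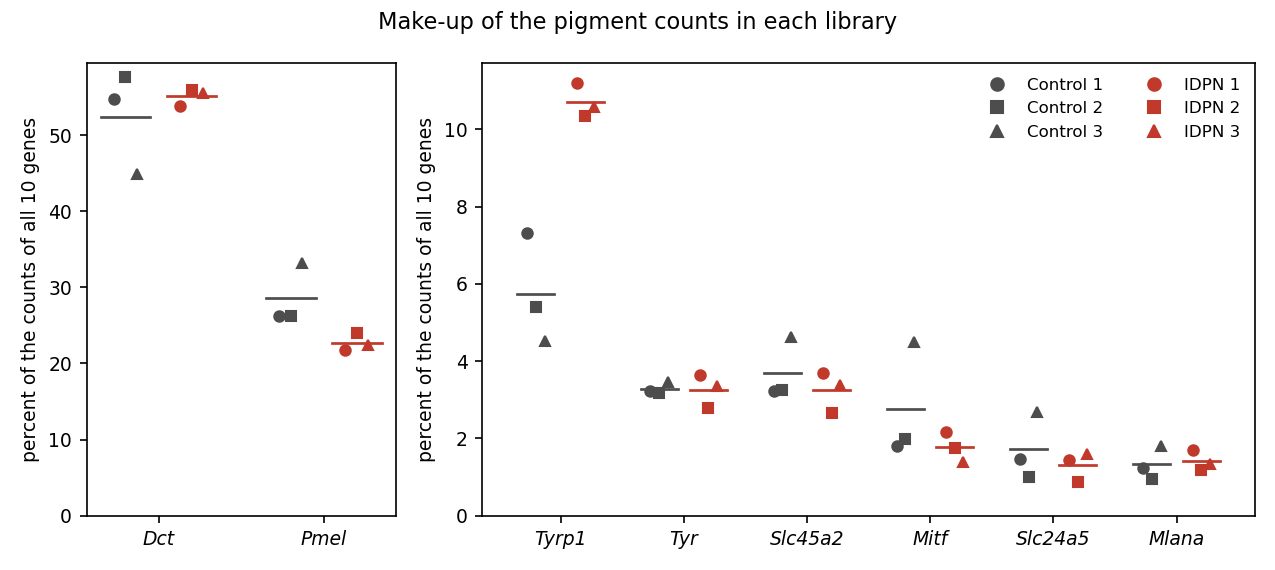
Percent of the summed counts of the 10 pigment genes taken by each gene in each library, with group means as bars; Oca2 and Gpr143 are not drawn. The 3 IDPN libraries lie between 10.4% and 11.2% for Tyrp1, above all Control libraries, and below all of them for Pmel.

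Levels were compared between genes as TPM, which is the count divided by exon length and scaled to a fixed total per library. The length merges the exons of all transcripts of a gene (5895 bases in Dct, 2292 in Pmel), and the order of genes depends on it. TPM, like total-count size factors, sets IDPN higher against Control than DESeq2 scaling does, so it is not used to compare groups. Kcnj10, with a log2 fold change of -0.02 by DESeq2, was at 14.0 TPM in Control and 17.3 in IDPN. In Control, Pmel was highest at 68.4 ± 8.71 TPM (SD, n = 3), followed by Dct at 51.0 ± 17.7. The ranges of these genes overlapped across Control, while within a library Pmel was above Dct in 6 of 6. Tyrp1 came next at 11.7 ± 4.86. Slc45a2 (6.72 ± 0.432) and Mlana (6.72 ± 0.688) had equal means, and Mlana was the higher in all libraries but Control 2. Slc24a5 (3.81 ± 0.955), Tyr (2.57 ± 0.525) and Mitf (2.29 ± 0.577) followed, with Tyr above Mitf in 5 of 6 libraries, then Gpr143 (1.07 ± 0.707) and Oca2 (0.129 ± 0.0379). The order in IDPN was the same apart from Mlana and Slc45a2, with Pmel at 115 ± 27.2, Dct at 109 ± 28.4, Tyrp1 at 44.3 ± 12.6 and Tyr at 5.45 ± 1.94 TPM. Tyrosinase transcripts were thus scarce beside those of Dct and Pmel in both groups.

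Libraries were ordered alike by most of the members. A score, the mean of the standardised log2(normalised count + 1) of the 10 genes, was 0.098, -0.28 and -1.19 in Control, against 0.82, -0.29 and 0.84 in IDPN. Over these 6 libraries, the correlation of a gene with the score of the other 9 was 0.967 for Tyr, 0.953 for Slc45a2, 0.944 for Mlana, 0.895 for Tyrp1, 0.855 for Dct and 0.845 for Pmel. It was lower for Gpr143 (0.749), Slc24a5 (0.639), Mitf (0.402) and Oca2 (-0.0249), the last of which had few counts. The 10 other genes most like the score were Ncoa3 (r = 0.982), Zmym3, Rttn, Gramd2, Med24, Plagl1, A230060F14Rik, Rab26, Parp2 and Stard9 (r = 0.956). None of them was called, and 71 of 13111 genes (0.542%) reached 0.9. The points share their libraries and scaling, and include the group difference.

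Of 24 genes that build and move melanosomes, 1 rose, none fell, and the median log2 fold change was 0.12. Without Control 3, Bloc1s1 was called as well, as lower. The gene that rose was Rab38, a small GTPase that brings Tyr and Tyrp1 protein to the melanosome (chr7:88430273-88491572, plus strand). Rab38 was at 210, 175 and 122 normalised counts in Control and 509, 391 and 603 in IDPN, with no overlap. Its log2 fold change was 1.57 (SE 0.26, DESeq2 Padj = 2.05e-07, edgeR Padj = 0.00732), and it was called in 14 of 14 alternatives with log2 fold changes of 1.38 to 1.87. As with the enzymes, Control 3 was lowest in Control and IDPN 2 lowest in IDPN. Rab38 lies on the same chromosome as Tyr, 936760 bases apart. Rab32, its close relative with an overlapping role, was at 135 to 189 in Control and 137 to 161 in IDPN (log2 fold change -0.03, DESeq2 Padj = 0.981). Rab27a, which tethers mature melanosomes to myosin, was at 131 to 158 and 179 to 255 (log2 fold change 0.55, DESeq2 Padj = 0.235).

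Regulators of the melanocyte lineage did not move one way. Of 17 genes, 16 were in the table and 13 had a Padj. Of these 2 rose and 1 fell, and the median log2 fold change over the 16 genes was 0.36. The 16 include genes with almost no counts, and with the low-count filter, which left 12 genes, the median was 0.25. Kit, the receptor for stem cell factor on which melanocytes depend, and which other cells also carry, was at 1408, 1215 and 1421 normalised counts in Control and 593, 502 and 454 in IDPN. Kit fell, with a log2 fold change of -1.38 (SE 0.18, DESeq2 Padj = 4.34e-12, edgeR Padj = 0.00133), and was called in 14 of 14 alternatives. Its libraries within a group were close, and neither Control 3 nor IDPN 2 stood apart in it. Kitl, which codes for the ligand of Kit, was at 309, 361 and 474 in Control and 318, 201 and 335 in IDPN (log2 fold change -0.42, DESeq2 Padj = 0.427).

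Sox10, a neural crest factor upstream of Mitf that Schwann cells and inner ear epithelium also express, was at 1938, 2625 and 3073 in Control and 4025, 4752 and 4562 in IDPN. It rose by a log2 fold change of 0.80 (SE 0.19, DESeq2 Padj = 0.00108, edgeR Padj = 0.0464) and was called in 12 of 14 alternatives, including all 6 that left out a library. Sox10 was highest in Control 3 among the Control libraries, which the melanin enzymes were not. Of the 8 Schwann cell genes, none was called, while 3 (Ncmap, Pmp22 and Mbp) were called lower without Control 3. Their sum was 217658, 115966 and 96723 in Control and 102515, 99196 and 85298 in IDPN (two-sided exact permutation p = 0.3). Edn3, the endothelin that promotes melanocyte growth, was at 25.5, 20.8 and 78.3 in Control and 138, 82.3 and 140 in IDPN (log2 fold change 1.52, DESeq2 Padj = 0.0272). Edn3 was not called by edgeR (Padj = 0.146) and was called in 2 of 6 fits that left out a library. Its receptor Ednrb was at 1687 to 2549 in Control and 1949 to 2169 in IDPN (log2 fold change -0.04, DESeq2 Padj = 0.960). Pax3, a melanocyte lineage factor, had 1.78 to 19.4 normalised counts, and Mc1r, the melanocortin receptor, was listed at 0 in 4 libraries with at most 5.02 in the others.

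Among 10 other genes of melanocytes and intermediate cells, 1 rose and 1 fell, and the median log2 fold change was 0.21. Kcnj13, a potassium channel known to act in pigment cells and pigmented epithelia, was at 1039, 1330 and 814 in Control and 1754, 1550 and 2061 in IDPN. The log2 fold change was 0.75 (SE 0.21, DESeq2 Padj = 0.00842). The edgeR Padj was 0.0594, and the DESeq2 call was lost without Control 1 (Padj = 0.0629) and without IDPN 3 (Padj = 0.126). Exons of Kcnj13 overlap those of Gigyf2, so reads may be shared between them. Ptgds, a prostaglandin D synthase also made by many other cells, was at 2755040, 2673830 and 1867060 normalised counts in Control and 1161270, 1298140 and 1216860 in IDPN. It fell by DESeq2 (log2 fold change -0.99, DESeq2 Padj = 2.45e-06) and was not called by edgeR (Padj = 0.162). Without Control 3, Tbx2, a transcription factor of the melanocyte lineage, was called higher beside Kcnj13. Without Ptgds, the other 9 genes summed to 7780, 7863 and 6488 in Control and 9058, 8895 and 10374 in IDPN.

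Trpm1, a melanocyte cation channel and Mitf target, was at 395, 432 and 287 in Control and 544, 434 and 559 in IDPN (log2 fold change 0.47, DESeq2 Padj = 0.242). Gpnmb, a Pmel-related glycoprotein that macrophages also make, was at 3008, 2800 and 1361 in Control and 2778, 2578 and 3991 in IDPN (log2 fold change 0.38, DESeq2 Padj = 0.506). Both had their lowest Control value in Control 3 and their highest IDPN value in IDPN 3, as the melanin enzymes did. Kcnj10, the potassium channel of intermediate cells that glia and supporting cells also use, was at 1439 to 1733 in Control and 1341 to 1859 in IDPN (log2 fold change -0.02, DESeq2 Padj = 0.982).

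**Figure D4:**
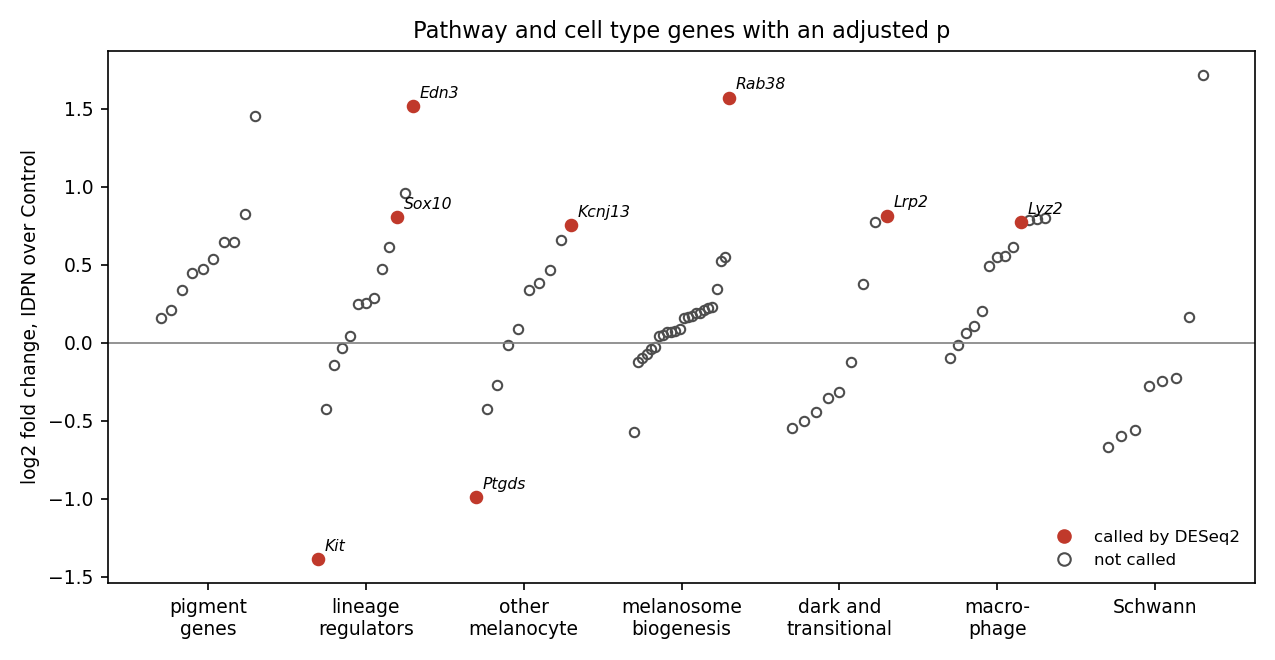
Log2 fold change (IDPN over Control) of every gene with an adjusted p in each list, ordered by size within the list; filled red points were called by DESeq2 and are named. Rab38 stands above the other 23 melanosome genes, Kit is the lowest of the lineage regulators, and none of the 10 pigment genes at the left is filled.

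Genes of neighbouring cell types were summed per library to see what moved with the pigment genes. Genes of dark and transitional cells, the epithelial cells beneath which vestibular melanocytes lie, were at 90342, 79188 and 55380 normalised counts in Control and 67657, 58048 and 57846 in IDPN (two-sided exact permutation p = 0.4). Of these 9 genes, 1 rose (Lrp2), and the median log2 fold change was -0.32, or -0.020 with total-count size factors. Without Control 3, 1 rose and 2 fell (Kcnq1 and Kcne1), and without IDPN 3, 1 rose and 1 fell (Slc12a2). The 8 stromal genes were at 43846, 34120 and 23563 in Control and 43121 to 44362 in IDPN (two-sided exact permutation p = 0.3), with 2 genes, Postn and Ogn, called higher. No stromal gene was called without Control 2, IDPN 1 or IDPN 3, and 1 without Control 1 or Control 3. Control 3, low in pigment counts, was the lowest Control library in 9 of the 11 lists of other genes that were summed. It was the lowest of all 6 libraries in 5 of them, which were the dark cell, stromal, macrophage, erythroid and melanosome lists. Its size factor was 1.12, beside 0.825 and 0.866 in the other Control libraries. The part of these values in the low pigment counts of Control 3 was not tested.

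Macrophage genes, which matter here because macrophages also use Mitf and Gpnmb, summed to 6149 to 7885 in Control and 8784 to 13405 in IDPN (two-sided exact permutation p = 0.1). Of 13 such genes, 1 rose (Lyz2), the median log2 fold change was 0.55, and none was at 0 in any library. Without IDPN 2 no macrophage gene was called, and without Control 2 there were 2. IDPN 2 was the highest library in macrophage genes and the lowest of its group in pigment genes. Erythroid genes, a sign of blood in the tissue, rose in 4 of 5 with sums of 16167 to 36635 in Control and 34689 to 49091 in IDPN (exact permutation p = 0.2). The count of erythroid genes called fell to 0 without Control 1, IDPN 1 or IDPN 2 and to 1 without Control 3 or IDPN 3. Of 8 endothelial genes, 1 fell (Kdr), and the sums were 7418 to 12508 and 7179 to 10829 (exact permutation p = 0.5). Of 8 supporting cell genes, 2 fell (Gjb6 and Sparcl1), with sums of 403075 to 595837 and 292722 to 360470 (exact permutation p = 0.1), and HC genes summed to 64218 to 68766 and 27591 to 34061 (exact permutation p = 0.1). Of the supporting cell genes, 4 were called lower without Control 3 or IDPN 2, and 1 without each of the other libraries. With 11 such sums compared at 3 against 3 libraries, none could pass 0.05. By edgeR, 0 genes were called in each of the macrophage, stromal, erythroid and supporting cell lists, 1 in the endothelial and 7 in the HC list. The part of these tissues in the pigment gene values was not tested.

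**Figure D5:**
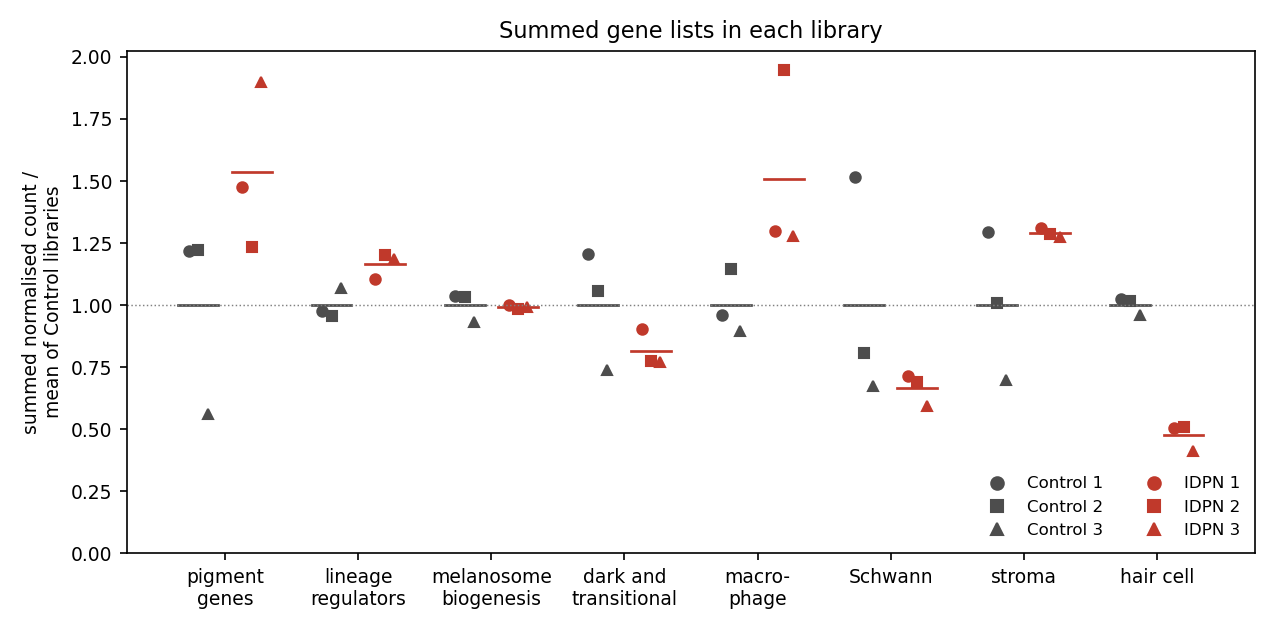
Summed normalised counts of each gene list in each library, divided by the mean of the 3 Control libraries (dotted line at 1); bars are group means. The spread of the Control libraries in pigment genes is wider than in lineage, melanosome or HC genes and narrower than in Schwann cell genes. Control 3 is the lowest Control library in every list drawn except the lineage regulators.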

How the data were processed

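RNA from vestibular epithelium of 3 Control and 3 IDPN mice was made into SMART-seq2 libraries, with no molecular identifiers, and sequenced in paired-end mode. The authors deposited estimated counts (expected counts) per gene as whole numbers with no normalization, which they obtained by aligning to GRCm38 with STAR 2.5.3a and counting with RSEM 2.3.0 on GENCODE M15. RSEM divides ambiguous reads between genes, and whether strand was used is not given in the sources used here. No per-sample column was left unused (0 columns).

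All 6 libraries entered a single fit over the whole table with DESeq2 1.42.0 (R 4.3.3), as in the study's methods, without covariates and with the default median-of-ratios scaling. The two-sided Wald test was used, with calls at adjusted p under 0.05 and fold change above 1.5. Alternatives were the edgeR 4.0.16 quasi-likelihood test (TMM, filterByExpr), TMM or total-count size factors, a low-count filter (10 counts in 3 libraries), independent filtering off, a test against the fold change of 1.5, a pseudocount of 10 in place of 1 for the score, and leaving out each library. The shares of pigment counts and edgeR without Control 3 or IDPN 2 were added after seeing the data. Single values per library were compared by exact permutation. Each library is a separate animal, and all carry a single batch label. The p-values set the group difference against the spread between these animals, and the title codes stay inseparable from IDPN.

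The members and the gene lists were chosen with earlier results of these data known. An item of the dark and transitional cell list is not reported here and was left out of its counts and sums. The text names all 10 members, genes of the lists that were called (at most the 4 most abundant per list) and markers that define a list, and the 10 genes most like the member score with a mean of at least 50 normalised counts. Rab32, Rab27a, Kitl, Ednrb, Trpm1, Gpnmb and Kcnj10 are given as defining markers or partners and were picked with their values known. Coordinates, overlaps and lengths came from GENCODE M21 on the same build, and promoters from RefSeq. On simulated counts with 200 of 16202 genes changed 4-fold between these groups, DESeq2 recovered 175 (204 calls) and edgeR 164 (179 calls). Of these calls, 29 (14.2%) by DESeq2 and 15 (8.38%) by edgeR were false. With no gene changed, DESeq2 made 6 calls and edgeR 2. The largest fold change of a member was 2.74 (Tyrp1), so the simulation does not measure how often changes as small as those of the members are found.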

Additional observations from a re-analysis of the deposited data

How the results depend on the processing

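None of the 10 pigment genes was called by DESeq2, by edgeR, with TMM factors, with the low-count filter, without independent filtering or against the fold change of 1.5. The count of members called was 4 with total-count size factors, 0 to 2 when a library was left out, and 1 by edgeR without Control 3; which property of the libraries sets this was not tested. Apart from Oca2, whose log2 fold change ran from -0.77 to 0.65 when a library was left out, every member kept its direction in every alternative run. For single members, 129 values kept direction and side of the threshold, 9 passed it and 1 reversed. Over the gene lists, 97 counts of calls stayed within 1.5 times, 10 grew and 47 shrank. Medians of the Schwann cell and endothelial lists changed sign with total-count size factors. The endothelial median, -0.056 in the main fit, also turned positive in DESeq2 without Control 1 (0.0095), Control 3 (0.166) or IDPN 3 (0.101). By edgeR without Control 3 it was 0.176. The difference in member score was 0.91, and 0.93 and 1.17 in its alternatives. No paired analysis was possible because the labels give the groups no replicate numbers. With 3 animals a group, the 95% interval of every member spans a fold change of 1.5, so absence of a call does not show an unchanged level. Intervals for single counts would cover counting error only.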
